A study of Mus musculus with 42 samples.

Results

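Dnmt1, Dnmt3a, Dnmt3b, Dnmt3l, Tet1, Tet2, Tet3, Uhrf1 and Dppa3, the genes that write, copy, shield or remove the methyl group on cytosine, were followed through 42 Affymetrix arrays of mouse preimplantation embryos. The genes were taken by symbol from the probe annotation of the array. They are 9 of the 18193 genes measured, they carry 21 probe sets, and all 9 were among the 15478 genes bright enough to be tested. Embryos of the strain B6D2F1, an F1 hybrid of C57BL/6 and DBA/2 mice, received a morpholino by injection at the 1-cell stage or were left uninjected. A morpholino is an antisense oligonucleotide that blocks translation or splicing of its target, so the target mRNA need not fall.

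There were 14 groups of 3 arrays, which the sample titles call biological replicates. Collected 44 h after injection were embryos given the Oct4, Sall4 or Nanog morpholino, embryos given a control morpholino with no target in the mouse, and uninjected embryos. The Oct4 and Sall4 groups at 44 h had 1 control and 1 uninjected group in common, and the Nanog experiment had its own pair. Collected at 20 h were embryos given the Oct4 morpholino or none, the Sall4 morpholino or none, and the Nanog morpholino, the control morpholino or none, in 3 separate experiments. All embryos were cultured in Human Tubal Fluid with a serum supplement, and their RNA was amplified before labelling. The sources used here do not give the number of embryos behind an array, and p-values measure only the spread between these arrays.

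DNA methylation falls during preimplantation development and is laid down again around implantation. Dnmt1, guided to newly replicated DNA by Uhrf1, copies methylation onto the daughter strand, while Dnmt3a and Dnmt3b write it on unmethylated DNA with the help of Dnmt3l, which has no catalytic activity of its own. Tet1, Tet2 and Tet3 oxidise methylcytosine, and Tet3 is the form stored in the egg. Dppa3, also called Stella or PGC7, is a maternal protein that protects the maternal genome and imprinted loci from Tet3-dependent oxidation. In embryonic stem cells Tet1 and Tet2 are known targets of Oct4.

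The upstream sequences of the 5 genes that passed the threshold in 3 or more comparisons below are shown because DNA methylation itself acts on CpG dinucleotides, here in capitals. Each is the 250 bases before the transcription start in RefSeq, build GRCm38.p6, read 5′ to 3′ on the strand of the gene; for Uhrf1 the more upstream of 2 starts is given.
Tet1, chr10:62887325-62887574, minus strand: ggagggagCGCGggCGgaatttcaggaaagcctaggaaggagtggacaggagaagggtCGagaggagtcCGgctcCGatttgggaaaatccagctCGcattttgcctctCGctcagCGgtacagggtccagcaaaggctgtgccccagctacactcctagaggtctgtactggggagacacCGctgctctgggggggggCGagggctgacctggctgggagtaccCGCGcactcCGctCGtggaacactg
Tet2, chr3:133544391-133544640, minus strand: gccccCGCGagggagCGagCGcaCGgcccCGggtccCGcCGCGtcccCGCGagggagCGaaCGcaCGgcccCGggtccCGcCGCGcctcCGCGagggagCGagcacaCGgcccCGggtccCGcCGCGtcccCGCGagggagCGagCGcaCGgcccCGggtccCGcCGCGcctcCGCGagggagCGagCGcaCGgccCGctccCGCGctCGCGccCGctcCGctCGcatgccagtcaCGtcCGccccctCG
Tet3, chr6:83441679-83441928, minus strand: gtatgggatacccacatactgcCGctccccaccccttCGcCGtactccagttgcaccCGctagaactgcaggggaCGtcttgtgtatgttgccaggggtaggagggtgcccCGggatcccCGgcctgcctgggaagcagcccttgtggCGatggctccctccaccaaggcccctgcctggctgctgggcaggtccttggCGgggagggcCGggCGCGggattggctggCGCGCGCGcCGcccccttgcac
Uhrf1, chr17:56303087-56303336, plus strand: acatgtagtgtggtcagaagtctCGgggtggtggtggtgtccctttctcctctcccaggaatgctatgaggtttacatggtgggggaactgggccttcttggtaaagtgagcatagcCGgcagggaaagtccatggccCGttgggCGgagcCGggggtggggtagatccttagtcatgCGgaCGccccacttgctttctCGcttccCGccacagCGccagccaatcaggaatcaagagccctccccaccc
Dnmt3b, chr2:153649199-153649448, plus strand: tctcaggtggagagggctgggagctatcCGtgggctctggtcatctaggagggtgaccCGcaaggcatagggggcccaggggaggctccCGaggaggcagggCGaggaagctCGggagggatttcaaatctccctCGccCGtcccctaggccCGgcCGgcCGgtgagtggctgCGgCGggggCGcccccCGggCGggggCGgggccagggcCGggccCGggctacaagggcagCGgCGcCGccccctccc
The windows hold 15 CpG in Tet1, 51 in Tet2, 17 in Tet3, 10 in Uhrf1 and 21 in Dnmt3b, against a median of 6 over all 32851 windows of that length in the table. The table held 8 of the 9 genes, Dppa3 being the other, with 15 starts in all. The GC box GGGCGG, searched on both strands, was in 11 of these 15 windows and in 32.7% of all windows. The octamer ATTTGCAT, searched on both strands, was in 0 of the 15 windows and in 1.6% of all windows.

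The values are probe set intensities as deposited, and the 18 arrays of the Nanog experiment lie on another scale than the other 24. Their median intensities were 193.05 to 227.34 and 26.13 to 33.33, so levels are set side by side only within each set. Replicates correlated at 0.896 or more over all probe sets. Summed markers of the early embryo were 13390.1 to 33037 and 4503 to 12029.6 in those sets, above those of cumulus and granulosa cells, whose sums reached at most 623 in the Nanog experiment and 145 in the others. Summed markers of blood, stroma and fibroblasts were also below them, at 672 to 3209 and 71.9 to 375. The sum of 3209 was on a control morpholino array at 44 h in the Nanog experiment. The marker Vim read up to 2102 in that experiment. In the embryos given the morpholino against it, Pou5f1 mRNA, which encodes Oct4, differed from the control morpholino by -0.82 (log2, adjusted p = 0.00323) at 44 h, Sall4 by 0.21 (0.702) and Nanog by -0.61 (0.654). Pou5f1 also differed by -0.88 with the Sall4 morpholino and by -0.70 with the Nanog morpholino (limma, adjusted p = 0.00455 and 0.0236). Sall4 mRNA differed by -0.99 with the Oct4 morpholino (adjusted p = 0.000725), so these falls were not particular to the morpholino against each gene. Arrays of pooled RNA cannot tell fewer cells of a type from less RNA per cell.

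Between 20 h and 44 h Tet1 and Tet2 mRNA rose, and Tet3 and Uhrf1 mRNA fell, by the brightest probe set of each gene. The other Tet2 probe set did not rise with time, and that of Uhrf1 did not pass, as given below. In uninjected embryos of the Nanog experiment, Tet2 rose by 3.77 and Tet1 by 1.42 on the log2(intensity + 16) scale, while Tet3 fell by 1.16 and Uhrf1 fell by 1.66. These are 2 of 9 genes higher and 2 lower at 44 h, where 9.28% of all genes tested were higher, 16.3% lower and 25.6% either (limma, Benjamini-Hochberg adjusted p under 0.05). The median change of the 9 genes was 0.02, the same as the 0.02 of all genes. The groups given the control morpholino had the same 4 genes past the threshold, 2 up and 2 down, against 7.17% up, 16.2% down and 23.3% either over all genes. Embryos given the Nanog morpholino had 1 higher and 2 lower, namely Tet2 up and Dnmt3b and Dnmt3l down, where 8% of all genes were higher, 11.8% lower and 19.8% either.

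In the uninjected embryos of the Oct4 and Sall4 experiments 6 of 9 genes changed, with Tet1, Tet2 and Dnmt3b higher at 44 h and Tet3, Uhrf1 and Dnmt1 lower. Over all genes 20.4% were higher, 25% lower and 45.5% either in that comparison, which sets the 44 h group against the mean of both uninjected groups at 20 h. Its 44 h and 20 h arrays come from separate experiments, so experiment and time cannot be told apart there. Stage markers moved with time as well: 11 of 14 maternal and 7 of 7 tested 2-cell markers fell in uninjected embryos of the Nanog experiment, and 7 of 17 tested morula and blastocyst markers rose while 1 fell, beside the 16.3% lower and 9.28% higher over all genes.

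**Figure D1:**
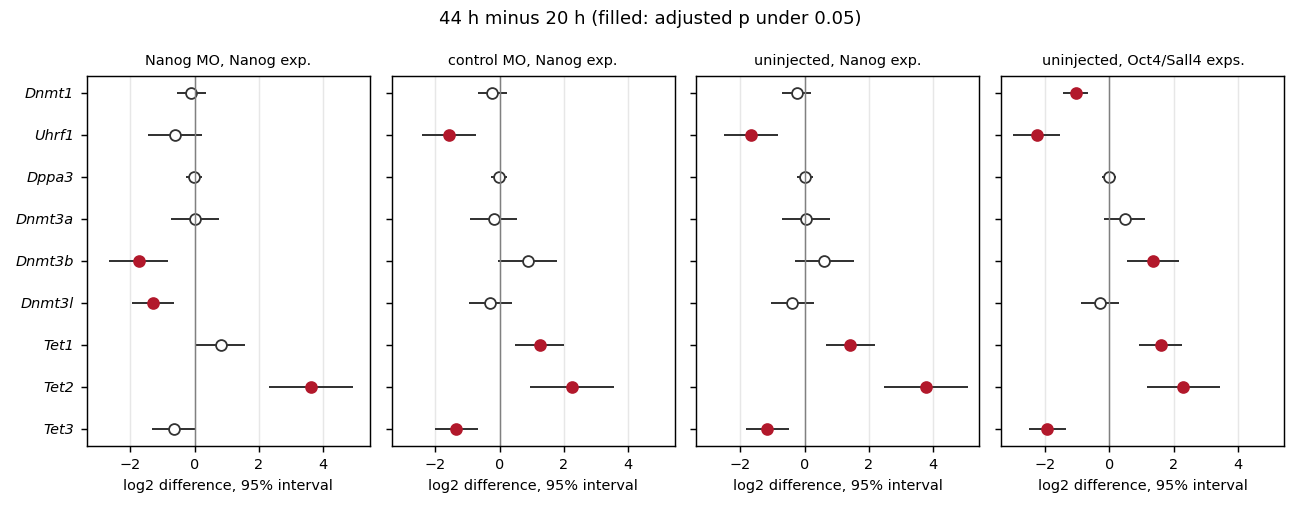
Difference of each gene between 44 h and 20 h (44 h minus 20 h, log2 of intensity + 16) with its 95% interval, for the Nanog morpholino, the control morpholino and uninjected embryos; filled points passed the adjusted threshold of 0.05. Tet2 lies above 0 in all 4 panels and Tet3 and Uhrf1 lie below 0 in all 4, though neither of these passed the threshold with the Nanog morpholino.

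Tet2 had the widest range of the 9 genes in the Nanog experiment, its highest group mean being 18.3 times its lowest. It read 2668, 1826 and 1577 in uninjected embryos at 44 h, against 58.6, 113 and 304 at 20 h (adjusted p = 2.63e-05). With the control morpholino it read 722, 1655 and 1783 at 44 h, against 665, 135 and 179 at 20 h, and the log2 difference was 2.26 (adjusted p = 0.00736). All 44 h arrays lay above all 20 h arrays in both pairs. Leaving out control morpholino replicate 2 at 20 h gave 1.84 with an adjusted p of 0.0558. Tet2 with the Nanog morpholino was 760.1, 1291 and 1432 at 44 h, against 256, 44.8 and 30.2 at 20 h, a rise of 3.64 (adjusted p = 8.3e-05). In the Oct4 and Sall4 experiments uninjected embryos read 192, 615 and 114 at 44 h, against 50.6, 37 and 40.4 (Oct4 experiment) and 27, 82.3 and 8.38 (Sall4 experiment) at 20 h. The difference there was 2.30 (adjusted p = 0.000718).

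Tet1 was 5228, 4015 and 5827 in uninjected embryos of the Nanog experiment at 44 h, against 2205, 2148 and 1331 at 20 h. The difference was 1.42 ± 0.36 (log2 ± SE, adjusted p = 0.00319), and with the control morpholino 1.25 ± 0.36 (adjusted p = 0.0102), on 5379, 5837 and 5715 at 44 h and 2536, 2597 and 2022 at 20 h. No 44 h array of either group reached down to its 20 h arrays. With the Nanog morpholino the difference was 0.81 (adjusted p = 0.111), on 3340.4, 2044 and 4313 at 44 h and 1483, 2029 and 1779 at 20 h, and it passed without Nanog morpholino replicate 2 at 44 h (1.11, adjusted p = 0.044). The uninjected embryos of the other experiments had 404, 667 and 498 at 44 h, against 189, 108 and 90 (Oct4 experiment) and 217, 272 and 143 (Sall4 experiment) at 20 h, a rise of 1.59 (adjusted p = 7.71e-05).

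Tet3, the egg's dioxygenase, ran the other way. Uninjected embryos of the Nanog experiment had 1651, 1433 and 1444 at 44 h, against 3097, 2958 and 4229 at 20 h, a difference of -1.16 (adjusted p = 0.00534). With the control morpholino Tet3 was 1653, 706 and 1368 at 44 h, against 3085, 2355 and 3708 at 20 h, a difference of -1.35 (adjusted p = 0.00153). The arrays of the 2 times do not overlap in either group. Under the Nanog morpholino it was 2679, 2429 and 2072 at 44 h, against 4038, 3222 and 4086 at 20 h, and the difference of -0.66 did not pass (adjusted p = 0.142). In uninjected embryos of the other experiments Tet3 stood at 156, 185 and 95.6 at 44 h, against 641, 802 and 644 (Oct4 experiment) and 674, 431 and 407 (Sall4 experiment) at 20 h, a difference of -1.93 (adjusted p = 4.93e-07).

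**Figure D2:**
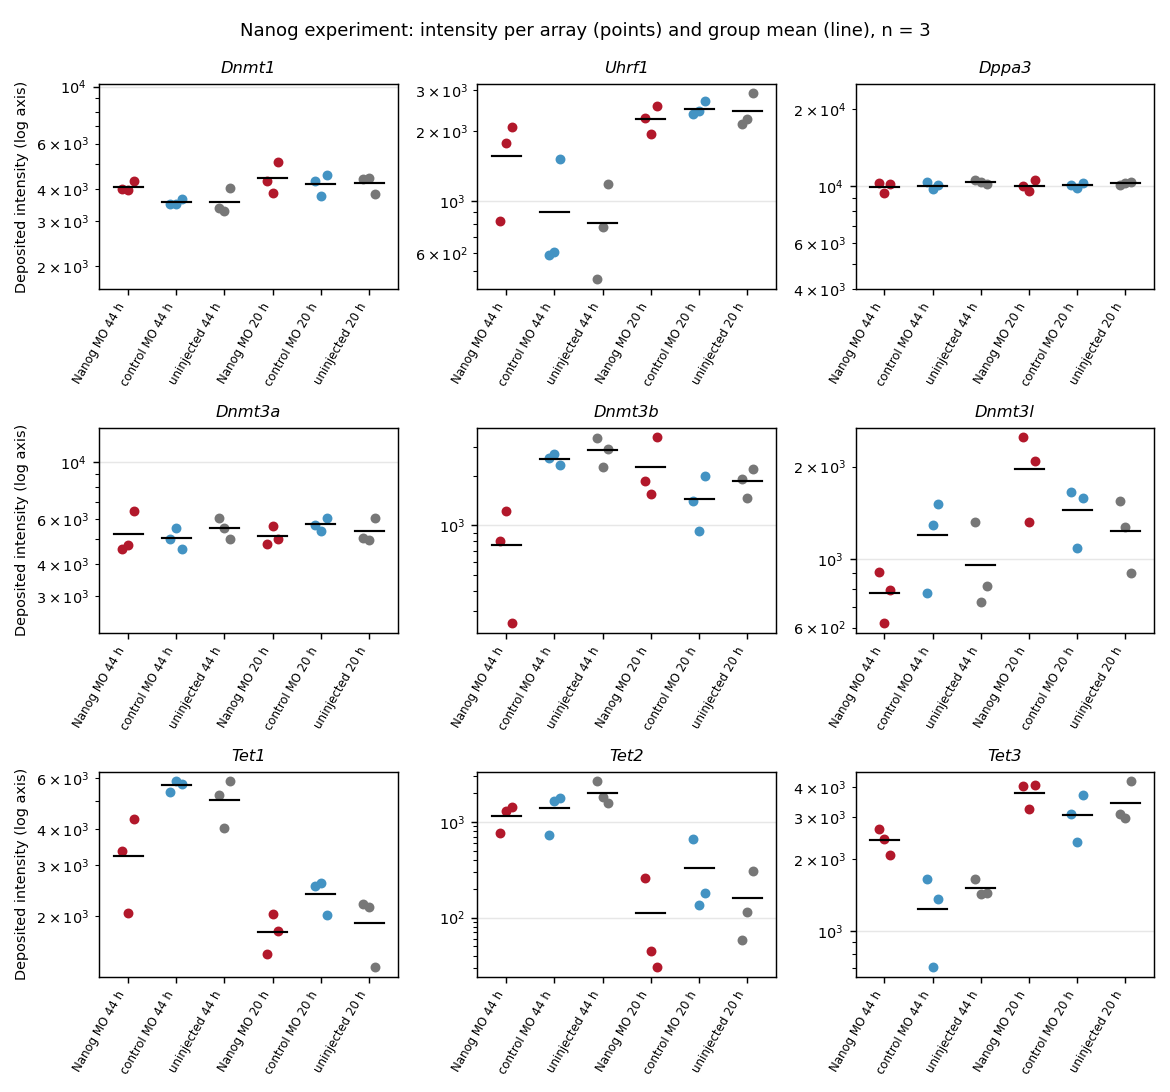
Intensity of each of the 9 genes on every array of the Nanog experiment (log axis), with 44 h groups left of 20 h groups; points are arrays and lines are group means. Dnmt3b with the Nanog morpholino at 44 h (253 to 1211) lies below every control and uninjected array at 44 h. The brightest Tet2 probe set, shown here, separates the times completely.

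Of the genes that copy methylation, Uhrf1 fell with time in uninjected embryos of both sets, and Dnmt1 passed in those of the Oct4 and Sall4 experiments. Uhrf1 was 462, 778 and 1178 in uninjected embryos of the Nanog experiment at 44 h, against 2132, 2253 and 2892 at 20 h, a difference of -1.66 (adjusted p = 0.00193). With the control morpholino it was 589, 607 and 1509 at 44 h, against 2350.2, 2421 and 2686 at 20 h, a difference of -1.59 (adjusted p = 0.00317). The 44 h arrays were all below the 20 h arrays, with a wide spread between the replicates at 44 h. Uhrf1 with the Nanog morpholino was 819.9, 1773 and 2086 at 44 h, against 2272, 1937 and 2553 at 20 h, and the difference of -0.62 did not pass (adjusted p = 0.304). Uninjected embryos of the other experiments had 249.8, 72.8 and 267 at 44 h, against 815, 1319.9 and 859 (Oct4 experiment) and 628, 819.8 and 1036 (Sall4 experiment) at 20 h, a difference of -2.26 (adjusted p = 2e-06).

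Dnmt1 averaged 891 ± 11.2 in uninjected embryos at 44 h in the Oct4 and Sall4 experiments, against 1897 ± 255 (Oct4 experiment) and 1896 ± 560.0 (Sall4 experiment) at 20 h (SD, n = 3 each), a difference of -1.05 (adjusted p = 1.17e-05). In the Nanog experiment it was 3372, 3286 and 4021 at 44 h, against 4382, 4402 and 3822 at 20 h in uninjected embryos, a difference of -0.24 with a 95% interval of -0.66 to 0.18 (adjusted p = 0.439). Its group means there spanned a ratio of 1.24. Whether the 2 time differences of Dnmt1 differ from each other was not tested. Dppa3 arrays ran from 9396 to 10632 in the Nanog experiment and from 7105 to 9262 in the others, with ratios of highest to lowest group mean of 1.04 and 1.19. Its mean lay above the means of 99.7% and 99.97% of probe sets in those sets, and whether differences are compressed at such brightness was not tested. Dppa3 passed in none of the comparisons reported here.

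Of the writing enzymes, Dnmt3b rose in uninjected embryos of the Oct4 and Sall4 experiments, to 524, 658 and 725 at 44 h, against 221, 319 and 225 (Oct4 experiment) and 251, 455 and 92 (Sall4 experiment) at 20 h (1.36, adjusted p = 0.00358). In the Nanog experiment uninjected embryos had 3385, 2244 and 2898 at 44 h, against 1915, 1468 and 2186 at 20 h, a difference of 0.61 that did not pass (adjusted p = 0.343). With the Nanog morpholino Dnmt3b was lower at 44 h than at 20 h, with a difference of -1.74 (adjusted p = 0.00441), on 801, 1211 and 253 at 44 h and 1856, 1539 and 3415 at 20 h; without replicate 3 at 44 h the difference was -1.10 (adjusted p = 0.0772), and with the mean of all probe sets it was -0.82 (adjusted p = 0.118). Dnmt3l was lower as well, 910.1, 619 and 797 at 44 h and 2491, 1327 and 2089 at 20 h, a difference of -1.30 (adjusted p = 0.00312). Dnmt3a did not pass in any of the 4 comparisons of time with all arrays. In uninjected embryos of the Nanog experiment it averaged 5526 ± 535 at 44 h, against 5363 ± 598 at 20 h, and in those of the other experiments it differed by 0.48 (adjusted p = 0.21; 0.00844 without uninjected replicate 3 of the Sall4 experiment at 20 h).

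**Figure D3:**
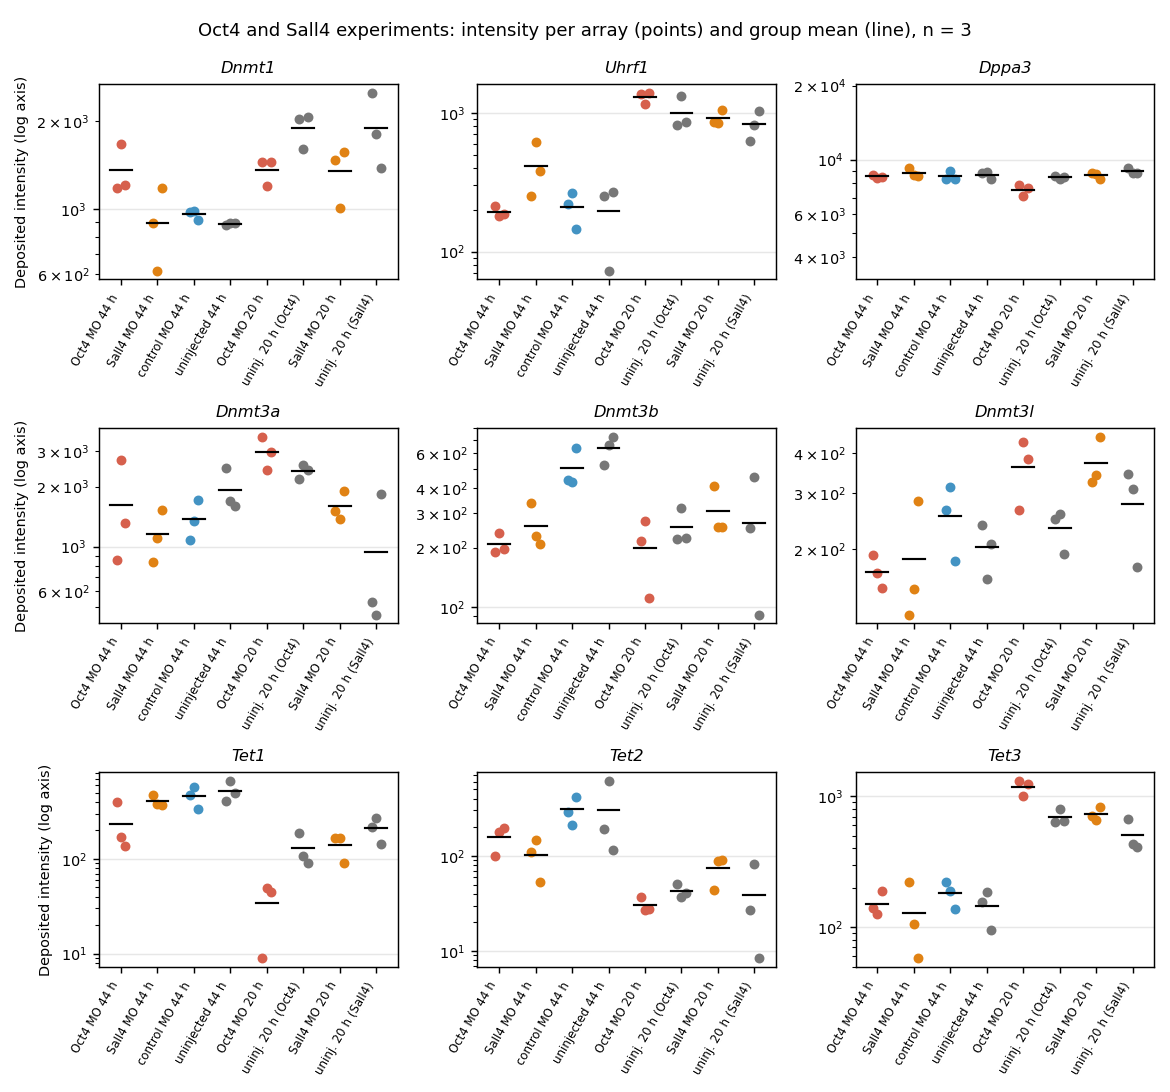
Intensity of each gene on every array of the Oct4 and Sall4 experiments (log axis), with 44 h groups left of 20 h groups, in the same style. Tet1 is lowest with the Oct4 morpholino at 20 h (8.91 to 49.1), and Tet3 is highest in the same group (1002 to 1313).

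At 44 h Dnmt3b was lower with the Nanog morpholino, Dnmt3b and Tet1 were lower with the Oct4 morpholino than in uninjected embryos, and no gene of the 9 passed with the Sall4 morpholino. Against the control morpholino, 1 of 9 genes passed with Nanog knockdown (5.01% of all genes), 0 with Oct4 knockdown (11.6%) and 0 with Sall4 knockdown (3.97%), by limma's adjusted p under 0.05. At an unadjusted p under 0.05 the counts were 4, 3 and 3 of the 9, against 17%, 24.1% and 16.5% of all genes. Against uninjected embryos 1 passed with Nanog knockdown (8.37%), 2 with Oct4 knockdown (14.4%) and 0 with Sall4 knockdown (6.95%), with 3, 3 and 3 of the 9 at an unadjusted p under 0.05, against 22.9%, 26.3% and 19.5% of all genes. The median differences from the control morpholino were -0.01 for Nanog, -0.25 for Oct4 and -0.27 for Sall4, against 0.05, 0.02 and -0.02 over all genes. The comparisons with control and uninjected embryos share the knockdown arrays, and those of Oct4 and Sall4 share their control and uninjected arrays.

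With the Nanog morpholino, Dnmt3b was 801, 1211 and 253 at 44 h, against 2572, 2701 and 2308 with the control morpholino and 3385, 2244 and 2898 in uninjected embryos. All 3 Nanog morpholino arrays were below all 6 others, and replicate 3 was the lowest. The level was 3.93 times lower than with the control morpholino, a log2 difference of -1.97 ± 0.44 (SE, adjusted p = 0.00606), and -2.12 ± 0.44 from uninjected embryos (adjusted p = 0.00226). Without Nanog morpholino replicate 3 the difference from the control morpholino was -1.34 (adjusted p = 0.0531).

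A further 3 genes of the Nanog experiment had an unadjusted p under 0.05 against the control morpholino without passing. Tet3 was 2679, 2429 and 2072 with the Nanog morpholino, against 1653, 706 and 1368 with the control morpholino and 1651, 1433 and 1444 in uninjected embryos, and its arrays did not overlap with either. Its difference from the control morpholino was 1.01 ± 0.31 (adjusted p = 0.0527), and it passed without control morpholino replicate 1 (1.26, adjusted p = 0.0284). Tet1 was 3340.4, 2044 and 4313 with the Nanog morpholino, against 5379, 5837 and 5715 with the control morpholino, a difference of -0.87 (adjusted p = 0.186). Uhrf1 was 819.9, 1773 and 2086 with the Nanog morpholino, against 589, 607 and 1509 with the control morpholino, overlapping, with a difference of 0.82 (adjusted p = 0.286). Tet2 differed by -0.20, Dnmt3l by -0.58, Dnmt1 by 0.20, Dnmt3a by 0.05 and Dppa3 by -0.01 (log2), none of which passed.

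With the Oct4 morpholino, Dnmt3b was 189, 238 and 196 at 44 h, against 440.3, 429 and 639.5 with the control morpholino and 524, 658 and 725 in uninjected embryos. The arrays did not overlap with either. The difference from uninjected embryos was -1.54 ± 0.44 (adjusted p = 0.0147; 0.0587 without uninjected replicate 3), and that from the control morpholino, -1.20 ± 0.44, did not pass (adjusted p = 0.0726). Tet1 was 399, 170.3 and 137 with the Oct4 morpholino, against 477, 568 and 338 with the control morpholino and 404, 667 and 498 in uninjected embryos, and replicate 1 lay within the range of the control arrays. Tet1 differed by -1.22 ± 0.36 from uninjected embryos (adjusted p = 0.0192) and by -1.04 ± 0.36 from the control morpholino (adjusted p = 0.0562). The difference from uninjected embryos passed in 9 of 11 alternatives that keep all arrays. With the mean of all probe sets it was -0.63 (adjusted p = 0.153). In a fit of that experiment by itself Tet1 had an adjusted p of 0.0622 against uninjected embryos. Against uninjected embryos its adjusted p was 0.0982 without uninjected replicate 2, 0.0795 without Oct4 morpholino replicate 2 and 0.128 without replicate 3; against the control morpholino it was 0.00871 without Oct4 morpholino replicate 1. Dnmt1 was 1184, 1672 and 1212 with the Oct4 morpholino, against 979.6, 981 and 918 with the control morpholino and 878, 897 and 899 in uninjected embryos. All its Oct4 morpholino arrays were the higher ones, by 0.47 (adjusted p = 0.145) and 0.58 (adjusted p = 0.0564). Among alternatives that keep all arrays, the difference from uninjected embryos passed only with quantile normalization, trimmed mean scaling and a filter at the 75th percentile. Its adjusted p values there were 0.03, 0.019 and 0.0402 by limma.

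With the Sall4 morpholino, Dnmt3b was 335, 229.9 and 208 at 44 h, against 440.3, 429 and 639.5 with the control morpholino, a difference of -0.93 ± 0.44 (adjusted p = 0.276). Tet2 was 111, 146 and 52.9 with the Sall4 morpholino, against 291, 212 and 419 with the control morpholino, and differed by -1.48 (adjusted p = 0.21). Uhrf1 was 249.7, 619 and 381 with the Sall4 morpholino, against 222, 263 and 144 with the control morpholino, and differed by 0.89 (adjusted p = 0.244). Dnmt3b and Tet2 did not overlap with their control arrays, and Uhrf1 did. Without Sall4 morpholino replicate 1, Tet3 passed against the control morpholino (-1.05, adjusted p = 0.0479) and Uhrf1 against uninjected embryos (1.41, adjusted p = 0.0454).

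Set against each other at 44 h, the Oct4 and Sall4 morpholinos differed in 0 of 9 genes, with 7.07% of all genes past limma's threshold; at an unadjusted p under 0.05 there were 3 of the 9 and 19.7% of all genes. Dnmt1 was 1184, 1672 and 1212 with the Oct4 morpholino and 895, 616 and 1181 with the Sall4 morpholino, a difference of 0.62 with a 95% interval of 0.20 to 1.04 (adjusted p = 0.065; 0.0152 without Sall4 morpholino replicate 3). Tet1 differed by -0.89 with an interval of -1.62 to -0.16 (adjusted p = 0.139; 0.0256 without Oct4 morpholino replicate 1). Uhrf1 differed by -0.96 with an interval of -1.77 to -0.15 (adjusted p = 0.154). Missing the threshold does not show that the 2 morpholinos act alike on these genes.

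Stage markers moved with these groups. Against the control morpholino at 44 h, 2-cell markers were higher in 6 of 7 tested genes with the Oct4 morpholino, 2 of 7 with the Sall4 morpholino and 3 of 7 with the Nanog morpholino. Maternal markers were higher in 2, 4 and 2 of 14, and morula and blastocyst markers lower in 3, 3 and 1 of 17, in the same order; over all genes 5.38%, 1.83% and 3.44% were higher and 6.18%, 2.13% and 1.56% lower. The summed oocyte and maternal markers were 21760 to 29234 with the Nanog morpholino, 9721 to 17515 with the control morpholino and 12637 to 15527 in uninjected embryos. In the other experiments they were 2728 to 3846 with the Oct4 morpholino, 3398 to 5031 with the Sall4 morpholino and 2149 to 2416 with the control morpholino. Their part in the values of the 9 genes was not tested.

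**Figure D4:**
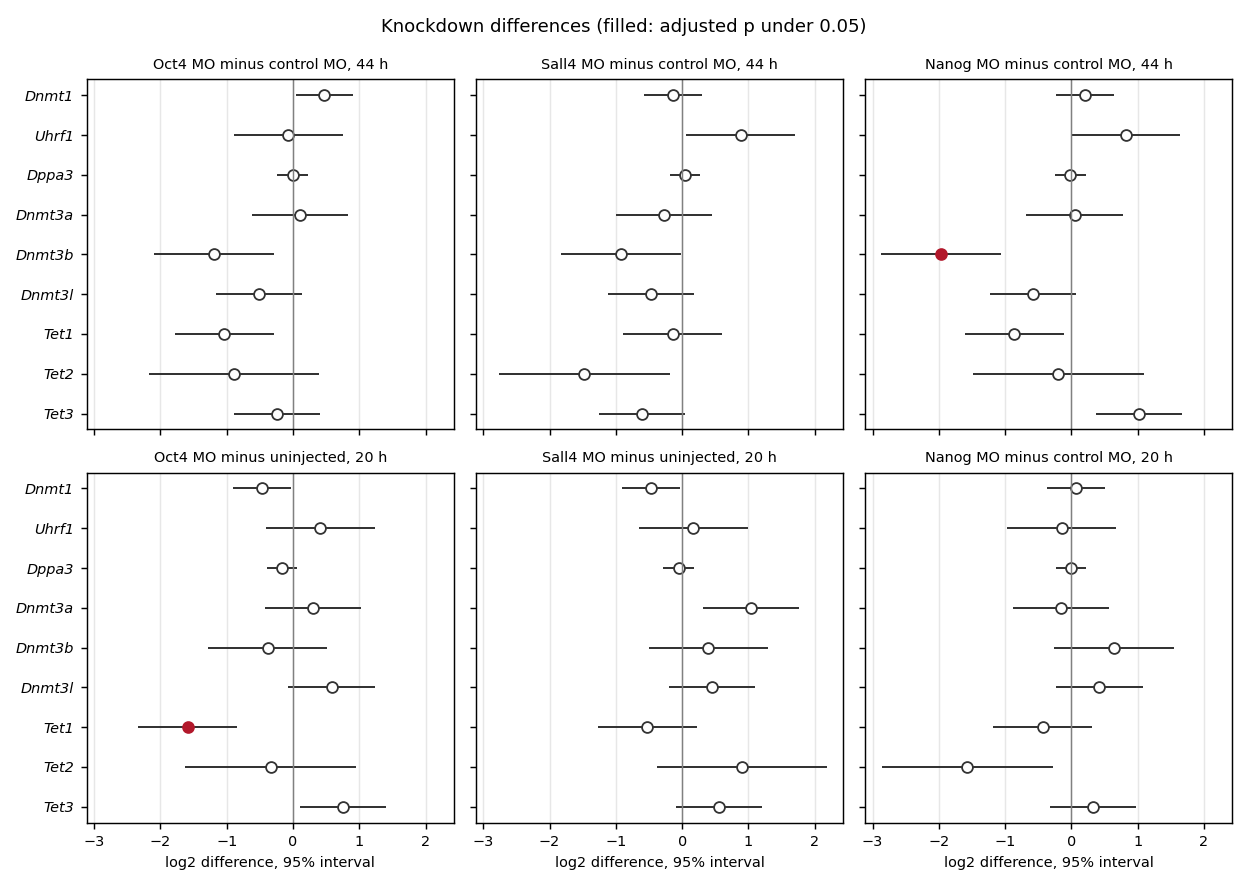
Difference of each gene between a morpholino and the group it is set against (log2 of intensity + 16, with its 95% interval); the upper panels are at 44 h against the control morpholino, the lower ones at 20 h. Filled points passed the adjusted threshold of 0.05, namely Dnmt3b with the Nanog morpholino at 44 h (-1.97) and Tet1 with the Oct4 morpholino at 20 h (-1.59).

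At 20 h, 1 gene passed: Tet1 fell with the Oct4 morpholino, to 8.91, 49 and 45.2, against 189, 108 and 90 in uninjected embryos. The arrays did not overlap, and the difference was -1.59 ± 0.36 (adjusted p = 0.0125), where 2.02% of all genes passed. The values with the Oct4 morpholino lie near the median intensities of those arrays, 30.7 to 33.3, so the size of the difference rests on the pseudocount and setting: over the alternatives with all arrays it ran over -2.12 to -0.97, and it did not pass with a pseudocount of 64 or in a fit of that experiment by itself. Nor did it pass without uninjected replicate 1 (-1.31, adjusted p = 0.142) or without Oct4 morpholino replicate 1 (-1.14, adjusted p = 0.0881). Tet3 was 1313, 1002 and 1235 with the Oct4 morpholino, against 641, 802 and 644 in uninjected embryos, with no overlap and a difference of 0.75 that did not pass (adjusted p = 0.308). Dnmt1 was 1451, 1200.2 and 1444 with the Oct4 morpholino, against 2026, 1604 and 2062 in uninjected embryos, also without overlap (-0.47, adjusted p = 0.373). No control morpholino was measured in that experiment among the samples used here, so injection itself and Oct4 knockdown cannot be told apart at 20 h, nor injection and Sall4 knockdown.

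The Sall4 morpholino at 20 h gave 0 of 9 against uninjected embryos, with 0.233% of all genes past limma's threshold; at an unadjusted p under 0.05 there were 2 of the 9 and 8.93% of all genes. Dnmt3a was 1505, 1374 and 1897 with the Sall4 morpholino, against 526, 457 and 1835 in uninjected embryos, and differed by 1.03 (adjusted p = 0.254). Uninjected replicate 3 stood within the range of the knockdown arrays, and without it the difference was 1.65 (adjusted p = 0.00995). The Nanog morpholino at 20 h gave 0 of 9 against the control morpholino, with 0.62% of all genes past the threshold; at an unadjusted p under 0.05 there were 1 of the 9, Tet2, and 7.89% of all genes. Tet2 was 256, 44.8 and 30.2 with the Nanog morpholino, against 665, 135 and 179 with the control morpholino, and differed by -1.57 (adjusted p = 0.418).

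The control morpholino against uninjected embryos changed 0 of 9 genes in each of 3 comparisons, with 0 of 9 at an unadjusted p under 0.05, where 5.52% to 10.4% of all genes were. Over all genes limma called 0.0905% at 20 h in the Nanog experiment, 0.349% at 44 h in the same experiment, and 0.0969% at 44 h for the control of the Oct4 and Sall4 morpholinos. Dnmt3b differed by -0.34 at 44 h for the control of the Oct4 and Sall4 morpholinos, with a 95% interval of -1.23 to 0.55, and by -0.15, with -1.04 to 0.74, in the Nanog experiment. Tet1 differed by -0.18 (-0.91 to 0.55) and by 0.18 (-0.55 to 0.91). The difference between the 2 control effects at 44 h passed in 0 of 9 genes (0.0129% of all genes; at an unadjusted p under 0.05, 0 of the 9 and 6.25% of all genes).

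Whether a knockdown effect changed from 20 h to 44 h was tested as the difference of differences. For the Nanog morpholino 1 of 9 passed, where 0.827% of all genes did: the Dnmt3b effect was -1.97 at 44 h and 0.64 at 20 h, a change of -2.61 ± 0.62 (adjusted p = 0.0324). At 20 h Dnmt3b was 1856, 1539 and 3415 with the Nanog morpholino, against 1393, 925 and 1993 with the control morpholino, overlapping. With all arrays kept, the call held in 7 of 11 alternatives, with limma's adjusted p reaching 0.143 in the others. The call held in 5 of 12 fits that each leave out 1 array. It was lost without replicate 1 or 2 of the control morpholino at 20 h or at 44 h, replicate 1 or 3 of the Nanog morpholino at 20 h, or replicate 3 at 44 h, with a largest adjusted p of 0.0985. For the control morpholino 0 of 9 passed (0.0129% of all genes; at an unadjusted p under 0.05, 0 of the 9 and 5.03% of all genes).

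For the Oct4 morpholino 1 of 9 effects changed, where 5.66% of all genes did: that on Dnmt1, measured against uninjected embryos, was 0.58 at 44 h and -0.47 at 20 h, a change of 1.05 ± 0.29 (adjusted p = 0.029). The 44 h and 20 h values come from separate experiments, so experiment and time cannot be told apart. With all arrays kept, the call held in 9 of 11 alternatives. It was lost with the mean of all probe sets (0.78, limma's adjusted p = 0.259) and in a fit of those experiments by themselves (adjusted p = 0.0791). The call held in 6 of 12 fits that leave out 1 array and was lost without uninjected replicate 1 or 3 or Oct4 morpholino replicate 2 at 20 h, or uninjected replicate 2 or 3 or Oct4 morpholino replicate 2 at 44 h, with a largest adjusted p of 0.0852. For the Sall4 morpholino 0 of 9 passed (1.47% of all genes; at an unadjusted p under 0.05, 3 of the 9 and 13.7% of all genes). The nearest was Dnmt3a, at -1.77 (adjusted p = 0.0606), which passed without uninjected replicate 3 at 20 h (-2.40, adjusted p = 0.00315) or Sall4 morpholino replicate 3 at 44 h (-1.99, adjusted p = 0.0348).

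The values above come from the brightest probe set of each gene, and further probe sets of Dnmt3a, Dnmt3b and Tet2 moved differently. When all 28588 probe sets bright enough were tested by themselves, a choice made after seeing the data, the Dnmt3a probe set 1423065_at was 207, 230.4 and 448 with the Nanog morpholino at 44 h, against 1349.8, 2567 and 2523 with the control morpholino and 2499.9, 4845 and 1763 in uninjected embryos. It fell by 2.82 against the control (adjusted p = 0.00354) and fell by 3.25 against uninjected embryos (adjusted p = 0.000627), and its arrays did not overlap. The probe set 1460324_at was 29.5, 17.1 and 32.9 with the Nanog morpholino, against 329, 108 and 293 in uninjected embryos, a difference of -2.49 (adjusted p = 0.0327); against the control morpholino it differed by -1.17 (adjusted p = 0.453). The brightest Dnmt3a probe set, 1423064_at, differed by 0.05 in the same comparison. The 4 further Dnmt3a probe sets correlated with it at 0.02 to 0.40 over the 42 arrays, centred within each set. The sources used here do not say which transcripts they read. Probe set calls here and below are given without the share of all probe sets passing. Over genes, 5.01%, 11.6% and 3.97% passed with the Nanog, Oct4 and Sall4 morpholinos against the control morpholino at 44 h. Against uninjected embryos 8.37% passed with the Nanog morpholino.

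The other Dnmt3b probe set, 1418351_a_at, passed with the morpholinos under which the brightest did not pass against the control, and the reverse. It was 116, 75.1 and 44.1 with the Oct4 morpholino, 189.7, 24.7 and 36.8 with the Sall4 morpholino and 339.9, 239.7 and 368 with the control morpholino at 44 h. It fell by 1.87 with Oct4 knockdown (adjusted p = 0.0258) and fell by 2.10 with Sall4 knockdown (adjusted p = 0.0295). With the Nanog morpholino it was 719, 395 and 775, against 1331, 1132 and 694 with the control morpholino, overlapping, with a difference of -0.73 (adjusted p = 0.551). Its correlation with the brightest Dnmt3b probe set was 0.41. Both Dnmt3b probe sets were thus below the control morpholino on average with all 3 knockdowns, by amounts that passed in different ones.

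In uninjected embryos of the Nanog experiment 9.28% of all genes tested were higher at 44 h than at 20 h. All 3 further Tet1 probe sets rose there, by 1.76 for 1429448_s_at, 3.21 for 1419896_at and 1.30 for 1419897_at (adjusted p = 0.00209, 0.000152 and 0.000265). With the Oct4 morpholino at 20 h they differed from uninjected embryos by -1.52, -1.35 and -0.24, with none passing (adjusted p = 0.0673, 0.438 and 1). The other Tet2 probe set, 1438781_at, differed by -0.31 with time (adjusted p = 0.641) and did not correlate with the brightest (r = 0.00). The other Uhrf1 probe set, 1415811_at, differed by -0.76 with time (adjusted p = 0.378). Both further Dnmt1 probe sets followed the brightest, at r = 0.82 and 0.73.

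**Figure D5:**
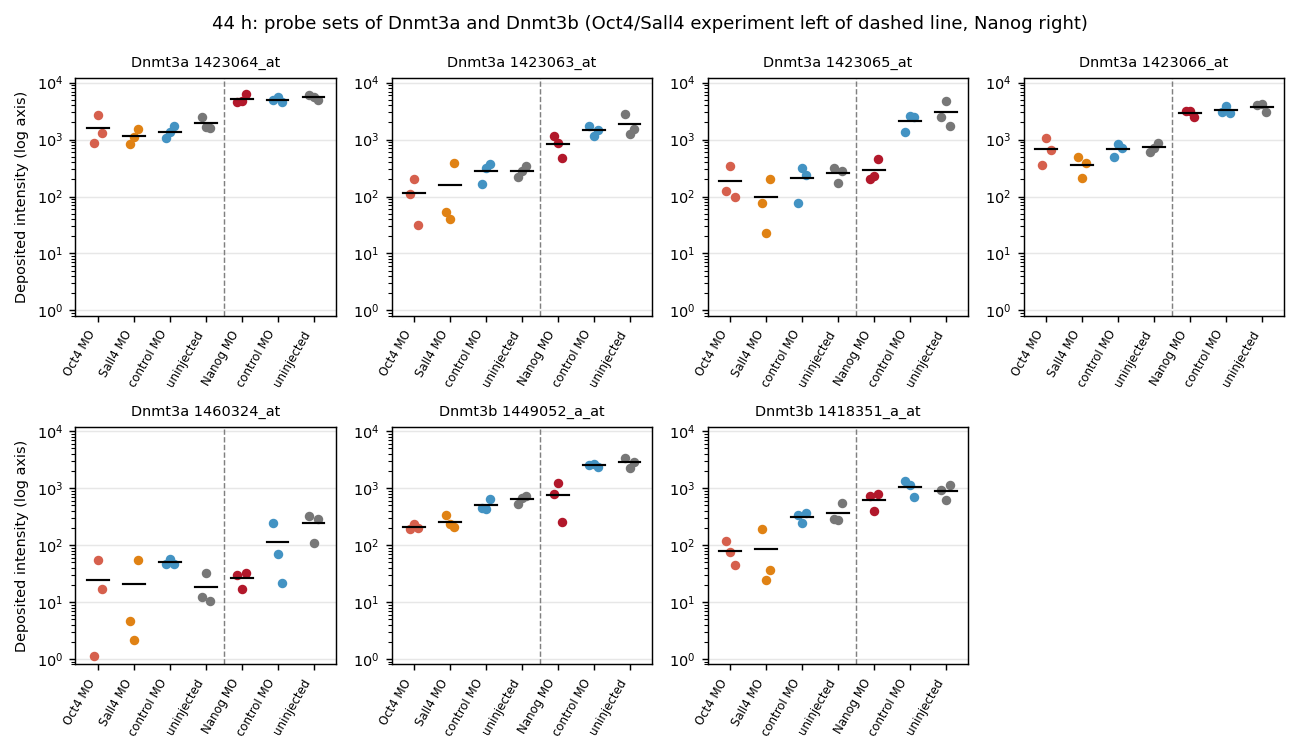
Intensity on every 44 h array (log axis) for the 5 probe sets of Dnmt3a and the 2 of Dnmt3b, with the Oct4 and Sall4 experiment left of the dashed line and the Nanog experiment right of it; points are arrays and lines are group means. The Dnmt3a probe set 1423065_at drops to 207 to 448 with the Nanog morpholino, while 1423064_at does not.

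Ranked by group mean, most neighbouring groups overlapped. In the Nanog experiment all 5 neighbour pairs overlapped for 7 of the 9 genes and for 65.5% of all genes tested. The exceptions were Tet2 and Tet3 with 4 of 5. The gap of Tet2 separates all 44 h groups from all 20 h groups, while that of Tet3 lies between the Nanog morpholino at 44 h and uninjected embryos at 44 h. Over the 8 groups of the other experiments 7 of 7 pairs overlapped for Dnmt3a, Dnmt3l and Tet2 and for 58% of all genes, 6 of 7 for Dnmt1, Dnmt3b, Tet1, Uhrf1 and Dppa3, and 5 of 7 for Tet3. There Tet3 ran from 1183 ± 162 with the Oct4 morpholino at 20 h, alone at the top, to 129 ± 84.2 with the Sall4 morpholino at 44 h, and Tet1 from 523 ± 133 in uninjected embryos at 44 h to 34.4 ± 22.1 with the Oct4 morpholino at 20 h, alone at the bottom. Dppa3 was lowest with the Oct4 morpholino at 20 h, at 7885, 7105 and 7640.2. Dnmt3l ran from 372 ± 68 with the Sall4 morpholino at 20 h to 169.7 ± 20.5 with the Oct4 morpholino at 44 h.

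Across the 42 arrays, centred within each set, Tet1 and Tet3 correlated at -0.81, Tet1 and Uhrf1 at -0.75 and Tet3 and Uhrf1 at 0.79, as a description of arrays that share time and experiment. The genes whose pattern was most like each of the 9, by Pearson's r over the same arrays, were Smarcd2 (0.80) and Oaz2 (0.79) for Dnmt1 and Lratd2 (0.92) and Jak2 (0.91) for Uhrf1. They were H2ac19 (0.67) and Tmprss2 (0.65) for Dnmt3a, Enah (0.67) and Gm11149 (0.63) for Dnmt3b, and Maea (0.74) and Fkbp14 (0.74) for Dnmt3l. For the oxidising enzymes they were Snx3 (0.90) and Wdr12 (0.88) for Tet1, Lpar1 (0.86) and Acadl (0.86) for Tet2, and Ccni (0.93) and Gyg (0.93) for Tet3. For Dppa3 they were Eif6 (0.81) and Rsl24d1 (0.78).

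Among 18 measured partners and regulators of DNA methylation, 3 rose and 2 fell with the Oct4 morpholino at 44 h against the control morpholino, with a median of -0.25 against 0.02 over all genes, of which 5.38% rose and 6.18% fell (11.6% either). Hells, a chromatin remodeller needed for normal DNA methylation, averaged 86.2 ± 63.4 with the Oct4 morpholino, against 1062 ± 395 with the control morpholino (SD, n = 3 each), a difference of -3.59 (adjusted p = 3.58e-08). Against the Sall4 morpholino Hells fell by 3.85 as well (adjusted p = 1e-08). Kdm1a, a histone demethylase known to stabilise Dnmt1, fell by 1.02 (adjusted p = 0.00537). Zfp57, which keeps imprinted regions methylated, rose to 1187 ± 213 with the Oct4 morpholino, against 353 ± 89.9 with the control morpholino (1.72, adjusted p = 1.57e-06). Kdm1b, a histone demethylase needed for imprints in the oocyte, and the histone methyltransferase Suv39h2 rose by 1.36 and 1.13 (adjusted p = 0.00226 and 0.00373).

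With the Sall4 morpholino 2 of the 18 rose, Zfp57 by 1.12 and Suv39h2 by 1.36 (adjusted p = 0.00161 and 0.00185), and with the Nanog morpholino Suv39h2 alone rose, by 0.90 (adjusted p = 0.0396). The medians were 0.08 and -0.02, and over all genes 1.83% rose and 2.13% fell with the Sall4 morpholino and 3.44% rose and 1.56% fell with the Nanog morpholino. From 20 h to 44 h in uninjected embryos of the Nanog experiment 3 of the 18 rose and 3 fell, where 9.28% of all genes rose and 16.3% fell: Ehmt2, a histone methyltransferase, by 3.08, Kdm2b by 0.73 and Kdm1a by 0.70 upwards, and Zfp57, Kdm1b and Suv39h2 by -1.34, -1.65 and -1.37. Zfp57, Kdm1b and Suv39h2, higher with the Oct4 morpholino, were thus among those lower at the later time. Of 8 measured readers of methylated CpG, Zbtb33 and Uhrf2 fell with time, a share near that of all genes (16.3% lower, 25.6% either), with differences of -2.28 and -1.85 (adjusted p = 0.00474 and 0.00438). Uhrf2, the relative of Uhrf1, was 954 ± 363 with the Nanog morpholino at 44 h, against 215 ± 36.3 in uninjected embryos, a difference of 2.02 (adjusted p = 0.00794); against the control morpholino it differed by 1.504 and did not pass (adjusted p = 0.0683), and 0 of the 8 readers did.

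Of 14 measured base excision and other proposed demethylation factors, 2 rose and 1 fell with the Oct4 morpholino at 44 h, 2 fell with the Sall4 morpholino, and 2 rose with the Nanog morpholino, with medians of -0.09, -0.33 and -0.15. Over all genes 11.6%, 3.97% and 5.01% passed in these comparisons. Gadd45b, a stress-response gene, rose by 2.90 with the Oct4 morpholino and by 2.62 with the Nanog morpholino (adjusted p = 0.00183 and 0.01). Xrcc1, a scaffold of single-strand break repair, fell by 1.83 with the Oct4 morpholino and fell by 2.16 with the Sall4 morpholino (adjusted p = 0.0133 and 0.00967). Gadd45g rose by 2.91 with the Oct4 morpholino, Gadd45a by 3.17 with the Nanog morpholino, and Parp1 fell by 1.77 with the Sall4 morpholino (adjusted p = 1.69e-06, 0.00081 and 0.0103). With time 6 of the 14 rose and 2 fell in uninjected embryos of the Nanog experiment (9.28% and 16.3% of all genes), the rises led by Elp3, a subunit of Elongator, at 5.14 (adjusted p = 1.12e-08). Elp3 also differed between control morpholino and uninjected embryos at 20 h (2.78, adjusted p = 0.023).

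A list drawn up for the supply of methyl groups and the Tet cofactor 2-oxoglutarate had 15 measured genes, and whether each acts in that supply was not tested. Of these, 3 fell with the Oct4 morpholino at 44 h, namely Ahcyl1, Idh2 and Shmt2, with differences of -1.30, -1.27 and -1.99 (adjusted p = 0.0032, 0.00673 and 0.0372). With the Sall4 morpholino Ahcy, which clears the by-product of methylation, fell by 2.06, and with the Nanog morpholino Idh1, which makes 2-oxoglutarate, fell by 2.79 (adjusted p = 0.0196 and 0.0196). The medians were -0.57, -0.61 and -0.08, and 6.18%, 2.13% and 1.56% of all genes fell. With time 5 of the 15 rose and 3 fell in uninjected embryos of the Nanog experiment, against 9.28% and 16.3% of all genes: Bhmt, which remakes methionine from homocysteine, averaged 11154 ± 353 at 44 h, against 1255 ± 899.5 at 20 h (adjusted p = 1.67e-06). Idh1 and Ahcy rose by 4.20 and 2.96 over the same time (adjusted p = 4.57e-05 and 6.47e-05).

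Genes known to carry promoter methylation in other cells were read as well. Of 14 measured germline genes, 2 rose with the Oct4 morpholino at 44 h and 3 with the Nanog morpholino, with medians of 0.25, 0.62 and 0.11 in the order Oct4, Nanog and Sall4; 5.38% and 3.44% of all genes rose with the Oct4 and Nanog morpholinos. Sycp3, a protein of the synaptonemal complex, averaged 1046 ± 266 with the Oct4 morpholino, against 262 ± 40.7 with the control morpholino (adjusted p = 0.00012). Dazl, an RNA-binding protein of germ cells, averaged 999.6 ± 175 with the Nanog morpholino, against 377 ± 107 with the control morpholino (adjusted p = 0.0359). Dazl was itself among the 6 of these genes that fell with time (16.3% of all genes), at -3.74 in uninjected embryos, and is stored in the oocyte. Of 21 measured imprinted genes, 1 rose with the Oct4 morpholino, 2 with the Sall4 morpholino and 1 with the Nanog morpholino, where 1 also fell, against 5.38%, 1.83% and 3.44% of all genes higher and 1.56% lower with the last. Cdkn1c, an inhibitor of the cell cycle, rose by 2.90 with the Oct4 morpholino, Phlda2, a gene that restrains placental growth, by 2.30 with the Sall4 morpholino, and Gnas fell by 1.41 with the Nanog morpholino (adjusted p = 0.00746, 0.0068 and 0.0254). Methylation itself was not measured on these arrays.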

How the data were processed

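RNA was extracted with the PicoPure kit and amplified and labelled with NuGEN kits, per the labels' protocols. The authors deposited 1 table of probe set intensity values on a linear scale for 42 arrays; their normalization by the authors: not given in the sources used here. From there, log2(intensity + 16) was taken with no further normalization. Of 45101 probe sets, 34945 have 1 gene symbol in the platform annotation, 932 several and 9160 none. Each gene was read from its probe set with the highest mean, and kept if a group mean passed the table's median of 71.15. Group means of all 14 groups were fitted in limma 3.58.1 (R 4.3.3), with 28 residual degrees of freedom, and p-values were adjusted (Benjamini-Hochberg) over 15478 genes. The fit was tested on simulated data. With 3 arrays a group an exact permutation test cannot go below 0.1 and was not used. The 9 genes, the other gene lists and the naming rule (all 9 genes, their divergent probe sets, and at most 4 passing genes per list and direction) were chosen with earlier results of these data known. Same-numbered arrays deviated together (every r over 0.1) in 1 of 23 group pairs, the control morpholino and uninjected embryos at 20 h in the Nanog experiment, where the replicate block gave 0 of 9 calls as well; elsewhere the numbers were not taken to pair the arrays. Alternatives covered the pseudocount, normalization, filter, probe set choice, array weights, the experiment alone and leaving out arrays. For arrays, their number limits the precision.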

Additional observations from a re-analysis of the deposited data

Results flagged for a closer look

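The effect of the Nanog morpholino on Dnmt3b differed between the times of collection by its own test, a change of -2.61 on the log2 scale (44 h minus 20 h, adjusted p = 0.0324 by limma). At 44 h all 3 arrays with the Nanog morpholino lay below the 3 with the control morpholino. At 20 h the arrays of the 2 groups overlapped. The call held in 7 of 11 alternatives that keep all arrays and in 5 of 12 fits that leave out 1 array. The effect of the Oct4 morpholino on Dnmt1 also differed between the times, by 1.05 (44 h minus 20 h, adjusted p = 0.029), with the effects taken against uninjected embryos of separate experiments. At 44 h its arrays with the Oct4 morpholino lay above those of uninjected embryos, and at 20 h below them. Neither of these Dnmt1 effects passed by itself (limma, adjusted p = 0.0564 at 44 h and 0.373 at 20 h). The call on their difference held in 9 of 11 alternatives that keep all arrays and in 6 of 12 fits that leave out 1 array.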

How the results depend on the processing

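In the fit as reported, 24 gene and comparison pairs passed. Across 11 alternatives that keep all arrays, 11 values lost the threshold and 25 others gained it. Each value is 1 gene in 1 comparison under 1 setting, so the same pair can be counted under several settings. Counts of the 9 genes passing are given below without the share of all genes passing under the same setting. Their moves therefore need not be particular to these 9 genes. Listed next, for settings that keep all arrays, are counts that moved to or from 0 or by a factor above 1.5. Smaller moves are left out. They include Dnmt1 with the Oct4 morpholino against uninjected embryos at 44 h, given above. Tet1 with the Nanog morpholino over time passed with a pseudocount of 64 and with the experiment alone (limma, adjusted p = 0.0381 and 0.0469). Dnmt3b with the control morpholino over time passed with the mean of all probe sets (adjusted p = 0.0279). With the arrays of the experiment alone, Oct4 morpholino against uninjected embryos gave 0 at 20 h and 1 at 44 h, Oct4 against control morpholino at 44 h 1, Sall4 morpholino against uninjected at 44 h 1, and the changes of the Nanog and Oct4 effects 0 each. With the mean of all probe sets, Oct4 and Sall4 against control morpholino gave 1 each, Nanog against control 2, Oct4, Sall4 and Nanog morpholino against uninjected embryos at 44 h 1, 1 and 2, and the changes of the Nanog and Oct4 effects 0 each. With a pseudocount of 64, Oct4 against uninjected at 20 h gave 0, Oct4 against control 1 and Nanog against control 2; with a pseudocount of 1 the change of the Nanog effect gave 0. With a filter at the 75th percentile, Oct4 against control gave 1, Nanog against control 2, Oct4 against Sall4 morpholino 1 and the change of the Sall4 effect 1. Array weights gave 1 for Oct4 against control and 1 for the change of the Sall4 effect, and quantile normalization gave 2 for Nanog against control. The cause of these moves was not tested. With the replicate number as a block, though same-numbered arrays deviated together in only 1 of 23 group pairs (r of -0.045 to 0.137), Nanog against control gave 2, the change of the Nanog effect 0 and that of the Sall4 effect 1. Leaving out 1 array gave 0 to 1 genes for Oct4 and Sall4 against uninjected embryos at 20 h, Oct4 and Sall4 against control morpholino, Oct4 against Sall4 morpholino, Sall4 against uninjected at 44 h and the changes of the Nanog, Oct4 and Sall4 effects. It gave 0 to 2 for Nanog against control at 44 h, 1 to 2 for Oct4 against uninjected at 44 h, 3 to 4 for control morpholino and 2 to 4 for Nanog morpholino with time, and 6 to 7 for uninjected embryos of the Oct4 and Sall4 experiments with time. Dnmt3a with the Nanog morpholino against uninjected embryos at 44 h, -0.09 as reported, was 0.0064 with quantile normalization and ran over -0.24 to 0.0035 with 1 array left out, turning sign without Nanog morpholino replicate 1. With the mean of all probe sets Dnmt3a differed there by -1.47 and passed (limma, adjusted p = 0.00595), as 1 of the 2 genes counted under that setting.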
